A study of Mus musculus with 4 samples.

Results

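Interferon-stimulated genes and the interferon regulatory factors (Irf) were examined in C2C12 cells, a mouse myoblast line. The set had 47 listed genes, chosen by name for their place in the interferon system, with earlier results of these data known. A gene was taken as measured where a transcript cluster of the array, the group of probes summarised into 1 value, named it and no other gene. Of the 47 genes 40 were measured, among 14806 genes named alone by some cluster and 16658 clusters in all. Eif2ak2, Ifit3 and Oas3 shared their clusters with other genes, and Isg15, Usp18, Ifi44 and Xaf1 were named by no cluster in the table used here. Each of the 40 had a single cluster. These genes were measured on 4 Affymetrix exon arrays, 2 per condition. The growth cells were in medium with 10% fetal bovine serum and were collected at 60 to 70% confluency. For differentiation, confluent cells received 2% horse serum and were collected 24 h later. The labels name no altered gene and no added interferon or virus in either group. Both groups are of 1 cell line. The arrays of a condition are labelled biological replicates, with nothing more said of the cultures. Serum and cell density change together with the condition and cannot be told apart from differentiation.

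Interferons are secreted proteins that cells release on sensing foreign or misplaced nucleic acid. Type I interferons bind the receptor made of Ifnar1 and Ifnar2, and interferon gamma binds the one made of Ifngr1 and Ifngr2. The attached kinases Jak1, Jak2 and Tyk2 phosphorylate Stat proteins. Stat2 and Irf9 act in a complex that binds the interferon-stimulated response element in the promoters of target genes, and the gamma-activated site serves the response to interferon gamma. The targets include antiviral enzymes, sensors of RNA, parts of antigen processing and factors of the pathway itself, such as Irf7. Many of them have a low basal level in cells that have not met interferon.

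The promoters of several members carry the first of these elements, and the stretches that hold it are shown because they mark which measured members have the classical sequence close to their start. RefSeq promoter windows (build GRCm38.p6, 250 bases before to 50 bases after the annotated start) were at hand for 34 of the 40 measured members, and not for Parp9, Parp14, Oas2, Mx1, Mx2 and Ifi27. The core, GAAA followed by any 2 bases and a further GAAA, was searched on both strands, where a match on the opposite strand reads as its reverse complement. Matches that overlap each other are marked as 1 run. It was found in 9 of these 34 members (26.5%), against 3.99% of all 27025 genes with a window. Capitals mark the core in the 30 bases shown for each, read along the strand of the gene.
Stat2: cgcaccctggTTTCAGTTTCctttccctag
Irf2: tggggaagtGAAAATGAAAttgacttttcc
Ifih1: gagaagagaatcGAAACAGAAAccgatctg
Ddx60: gtgatgaatgGAAACCGAAActtaaagctt
Ifit1: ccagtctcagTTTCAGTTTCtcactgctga
Gbp2: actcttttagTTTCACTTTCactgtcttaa
Gbp3: gacacagTTTCAGTTTCTATTTCccagatc
Bst2: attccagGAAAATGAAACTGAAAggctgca
Rsad2: ctggtccaacTTTCATTTTCagaaaacaga
On the plus strand these are chr10:128270266-128270295 for Stat2, chr8:46739495-46739524 for Irf2, chr8:61928024-61928053 for Ddx60, chr19:34640794-34640823 for Ifit1, chr3:142620594-142620623 for Gbp2 and chr3:142559992-142560021 for Gbp3. On the minus strand they are chr2:62646206-62646235 for Ifih1, chr8:71537580-71537609 for Bst2 and chr12:26456553-26456582 for Rsad2. Gbp3 and Bst2 each hold 2 overlapping matches, and the first match of Bst2 also overlaps a match to the gamma-activated site described further on. Ddx60 and Ifit1 each had a further match, not shown. A match describes the letters and is not evidence of binding.

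**Figure D1:**
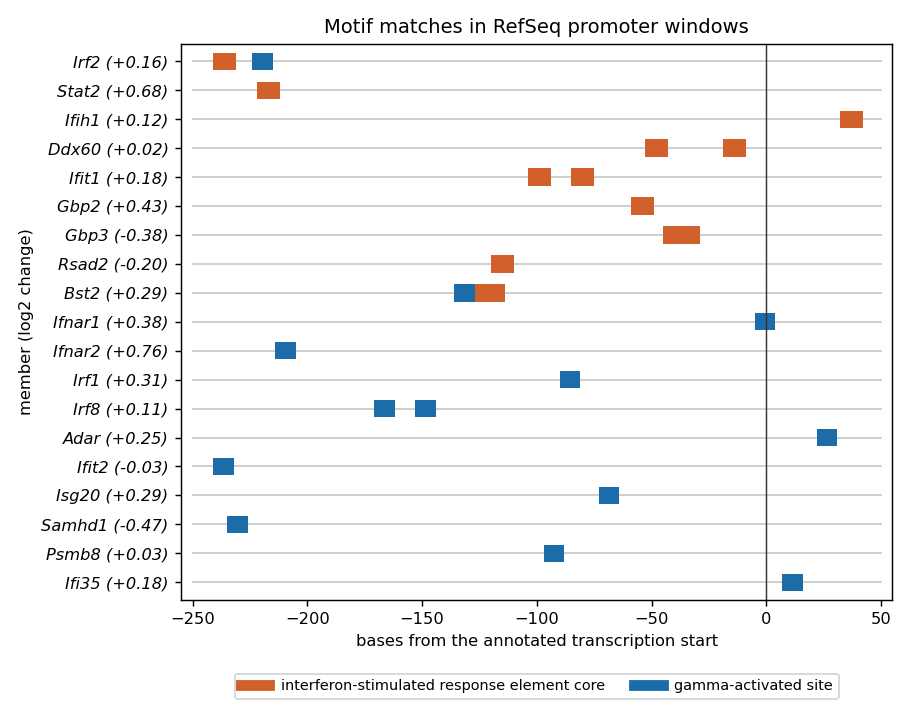
Position of motif matches in the promoter windows of measured members, in bases from the annotated start (horizontal axis), with 1 line per gene and its log2 change in brackets. Orange bars are the interferon-stimulated response element core and blue bars the gamma-activated site. Of the 9 members with an orange bar 1, Stat2, passed the test between conditions, beside 16.2% of all clusters.

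Between the conditions, 7 measured members rose and 1 fell. The test was limma on log2(intensity + 16) (differentiation against growth), where a call needs an adjusted p (Benjamini-Hochberg, 16658 clusters) under 0.05. Those that rose were the receptor gene Ifnar2, the factor genes Irf7 and Stat2, the ubiquitin ligase gene Dtx3l, the ADP-ribosyltransferase gene Parp14, Oasl2 of the oligoadenylate synthetase-like family, and Ifi27, an interferon-induced membrane protein gene. The one that fell was Mx1, a dynamin-like antiviral GTPase gene. The 8 called are 20% of the members, beside 16.2% of all clusters. Higher calls were 17.5% of members beside 8.64% of clusters, and lower calls 2.5% beside 7.52%. At an unadjusted p under 0.05 in the same limma fit there were 10 higher members (25%, beside 17.8% of clusters) and 5 lower (12.5%, beside 15.2%). The median log2 change, differentiation minus growth, was 0.21 over the members and -0.01 over all clusters. In a bulk culture, a change in the share of cells that express a gene and a change in RNA per cell cannot be told apart.

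**Figure D2:**
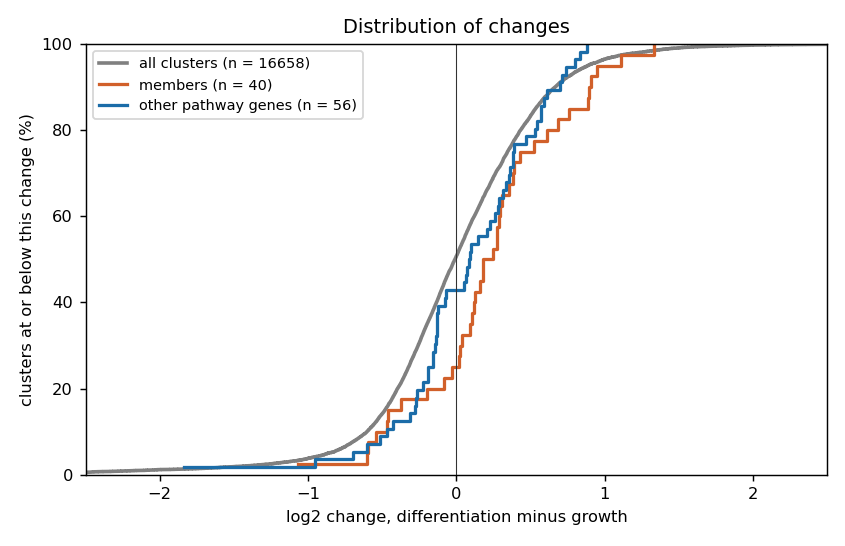
Cumulative share of clusters (vertical axis, percent) at or below each log2 change, differentiation minus growth (horizontal axis), for all 16658 clusters, the 40 members and 56 other genes of the pathway. The line of the members lies to the right of that of all clusters near 0, with a median of 0.21 against -0.01, and does not reach the tails of all clusters.

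For 22 of the 40 members (55%) the growth and differentiation values did not overlap, which held for 60.8% of all clusters. Of these 22, differentiation was higher for 17 (42.5% of the members, beside 30.8% of all clusters). It was lower for 5 of the 40 members, beside 5006 of all 16658 clusters. With 2 arrays per group the smallest two-sided p of an exact permutation test is 0.333, so the calls rest on limma, which shares its estimate of the spread across clusters. The table holds no detection call. Of the 40 members 9 lay in the lowest 25% of clusters by mean log2 intensity, where a value may be mostly background. The other members are not thereby shown to be above background. Irf7, not among the 9, had 38.5 on growth replicate 1, where the lower quartile of all clusters was 52.6. Intensities are compared between arrays for 1 gene, not between genes, since probes differ in brightness. Standard errors (SE) are those of limma, and the adjusted p of each gene is that of the same limma fit.

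**Figure D3:**
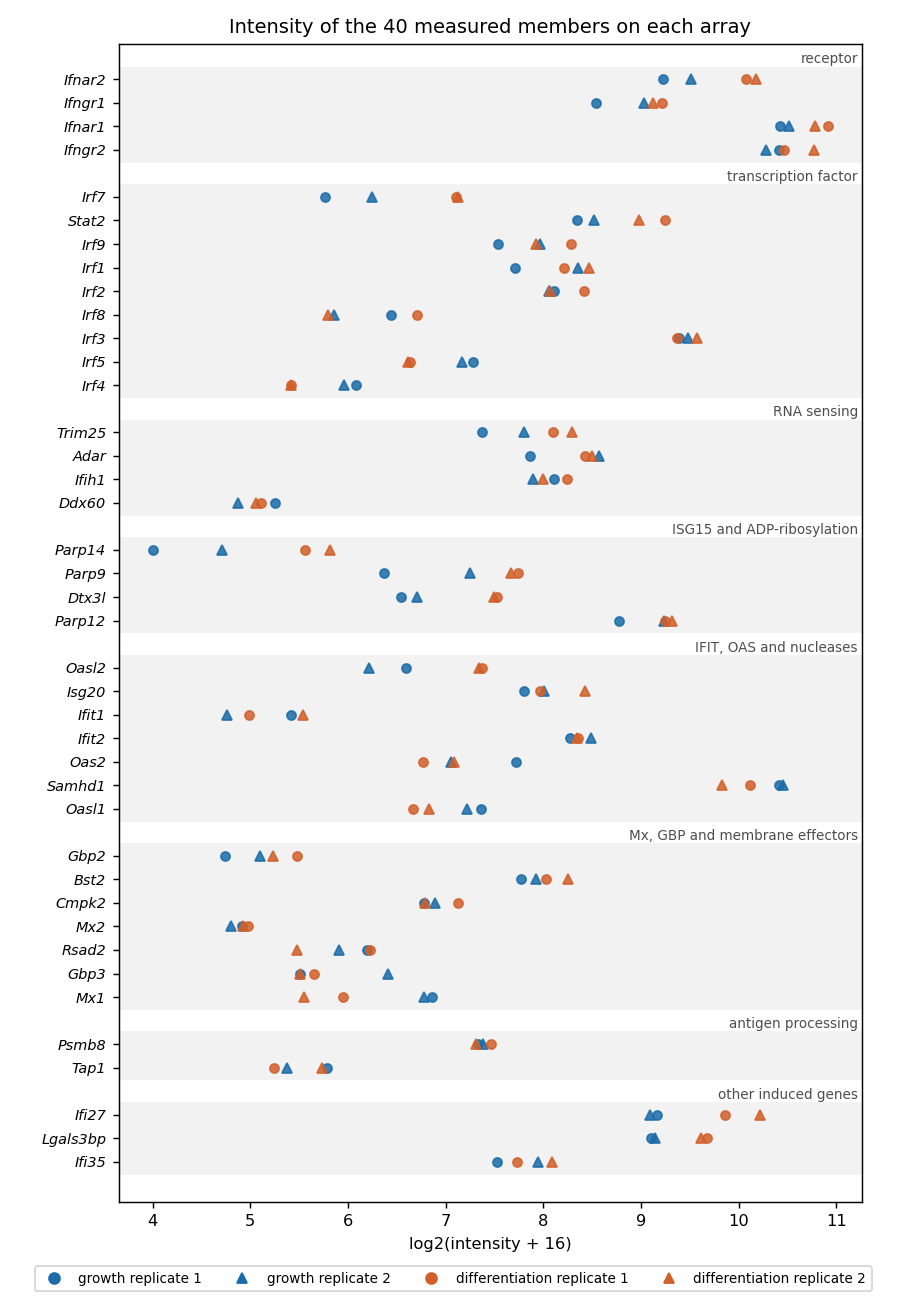
Log2(intensity + 16) of each measured member (horizontal axis) on the 4 arrays, with genes in rows grouped by role. Blue marks are growth and orange marks differentiation, with circles for replicate 1 and triangles for replicate 2; for Irf7, Dtx3l, Oasl2 and Ifi27 all orange marks lie to the right of all blue ones, and for Mx1 to the left.

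All 4 receptor genes lay higher on both differentiation arrays than on both growth arrays, as did 30.8% of all clusters. Only Ifnar2 passed (25% of them, beside 8.64% of all clusters called higher). Ifnar2, the subunit that binds type I interferon most tightly, had intensities of 582 and 715 in growth and 1063 and 1145 in differentiation. The groups were well apart, and the log2 change was 0.76 ± 0.19 SE (adjusted p = 0.0341). Its partner Ifnar1 had 1360.1 and 1444 in growth and 1912 and 1743 in differentiation, a change of 0.38 ± 0.18 that did not pass (adjusted p = 0.186). For the receptor of interferon gamma the groups lay closer. Ifngr1, the ligand-binding chain, had 355 and 506 in growth and 579 and 539.9 in differentiation (0.39 ± 0.22; adjusted p = 0.253). Without growth replicate 1 the change of Ifngr1 was 0.14. Ifngr2, the signalling chain, had 1349 and 1229 in growth and 1395 and 1735 in differentiation (0.27 ± 0.19; adjusted p = 0.365). The lowest differentiation value of Ifngr2 was only slightly above the highest growth value. Ifnar2, Ifnar1 and Ifngr2 lie close together on 1 chromosome, with the receptor gene Il10rb between the first pair and no coding gene between the second.

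Of 9 transcription factor genes 2 rose, Irf7 and Stat2 (22.2%, beside 8.64% of all clusters), and none of the others passed. Irf7, which drives the production of type I interferons and is itself a target of them, had 38.5 and 60.1 in growth and 121 and 124 in differentiation. Differentiation replicates lay close together and above both growth arrays, with a log2 change of 1.11 ± 0.21 SE (adjusted p = 0.0123). Stat2, a signal transducer of the type I receptor, had 309 and 350.1 in growth and 589 and 490.0 in differentiation. Its change was 0.68 ± 0.19, just inside the threshold (adjusted p = 0.0483). Irf9, the DNA-binding part of the same complex, had 169.5 and 235 in growth and 295 and 227 in differentiation. These groups overlapped, and the change of 0.35 ± 0.22 did not pass (adjusted p = 0.308).

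The other Irf genes did not pass the test. Irf4 and Irf5, known from lymphocytes and myeloid cells, were lower on both differentiation arrays and just outside the threshold. Irf4 had 51.8 and 46.4 in growth and 26.8 and 26.9 in differentiation (-0.60 ± 0.18; adjusted p = 0.0563), and it belonged to the dimmest 25%. Irf5 had 139.6 and 127.5 in growth and 83.5 and 82.1 in differentiation (-0.60 ± 0.18; adjusted p = 0.0575). Irf3, the constitutive factor that starts the first wave of interferon, varied little and its groups overlapped. It had 655 and 697 in growth and 645 and 746 in differentiation, a change of 0.04 ± 0.18. Irf1, an activator induced by interferon gamma, had 194 and 311 in growth and 281 and 337 in differentiation, so the growth arrays differed more from each other than the group means did. Irf2, which competes with Irf1 for the same sites, had 261 and 251 in growth and 327 and 252.5 in differentiation (0.16 ± 0.20). Irf8, a factor of myeloid cells, split by array within each group, at 70.7 and 41.8 in growth and 88.5 and 39.7 in differentiation.

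All 4 measured genes of the ADP-ribosylation group lay higher on both differentiation arrays, which held for 30.8% of all clusters. Of these 2, Parp14 and Dtx3l, rose (50%, beside 8.64% of all clusters). Growth replicate 1 was below growth replicate 2 for all 4 (median log2 difference, replicate 2 minus replicate 1, of 0.58, beside 0.07 over all clusters). Parp14, Dtx3l and Parp9 follow each other in the gene order of the RefSeq table with no other coding gene between them. Dtx3l, the ubiquitin ligase that works as a pair with Parp9, had 77.5 and 88.5 in growth and 168 and 165 in differentiation. The replicates were close and the groups far apart, with a log2 change of 0.88 ± 0.18 SE (adjusted p = 0.0152). Parp9 had 66.7 and 135.6 in growth and 197 and 187 in differentiation. Its change was as large, at 0.90 ± 0.28, but the growth arrays lay far apart, and it did not pass (adjusted p = 0.0677). It passed without growth replicate 2, at 1.33, while without growth replicate 1 the change was 0.46. Parp14 had 0.01 and 10.1 in growth and 31.2 and 40.3 in differentiation, all within the dimmest 25%. Its change was 1.33 ± 0.26 (adjusted p = 0.0123) on the scale with an offset of 16 and 3.44 with an offset of 1, so its size is not fixed by these data. Parp12, an RNA-binding enzyme of the same family that lies elsewhere in the genome, had 424 and 585 in growth and 593 and 621 in differentiation (0.28 ± 0.21; adjusted p = 0.389). Without growth replicate 1 its change was 0.050.

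None of the 4 measured genes that sense or modify RNA passed the limma test, and at an unadjusted p under 0.05 there was 1, Trim25 (25% of them, beside 32.9% of all clusters). Trim25, the ubiquitin ligase that assists the RNA sensor Rigi, had 149.5 and 206 in growth and 258 and 298 in differentiation (0.61 ± 0.21 SE; adjusted p = 0.0867), with the groups apart. Ifih1, the sensor of long double-stranded RNA, had 261 and 221 in growth and 287 and 239 in differentiation, and the groups overlapped. Adar, the editing enzyme that marks cellular RNA as self, had 217 and 363 in growth and 327 and 346 in differentiation, with both differentiation values between the growth values. Ddx60, a helicase, stayed between 13.3 and 22.2 on the 4 arrays, with a log2 change of 0.02 ± 0.20.

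Of 7 measured effectors that act on viral RNA or on nucleotides 1 rose, Oasl2 (14.3%, beside 8.64% of all clusters), and the others did not pass. Oasl2, a synthetase-like protein, had 80.9 and 58.3 in growth and 149.3 and 146 in differentiation (0.95 ± 0.20 SE; adjusted p = 0.0176). Its neighbour and relative Oasl1 lay lower in differentiation, at 148.6 and 133.4 in growth and 85.6 and 97.6 in differentiation. The groups of Oasl1 were apart, but its change of -0.55 ± 0.18 did not pass (adjusted p = 0.0813). Oas2, a synthetase that activates RNase L, had 195 and 117 in growth and 92.7 and 120.2 in differentiation, with overlap. Samhd1, which depletes the nucleotides that viruses need to copy DNA, had 1352 and 1385 in growth and 1091 and 892 in differentiation (-0.47 ± 0.19; adjusted p = 0.133). The Ifit proteins bind foreign RNA ends and block its translation. Ifit2 had 294 and 342 in growth and 310.4 and 309 in differentiation, with both differentiation values between the growth ones. Ifit1 was dim and overlapped, at 26.7 and 11.2 in growth and 15.8 and 30.6 in differentiation. Isg20, an RNA exonuclease, had 206 and 241 in growth and 234 and 329 in differentiation (0.29 ± 0.22).

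Of 7 measured Mx, GBP and membrane effector genes 1, Mx1, fell (14.3%, beside 7.52% of all clusters), and the others did not pass. Mx1 had 100.3 and 93.4 in growth and 45.6 and 30.9 in differentiation, and its intensity thus lay lower on both differentiation arrays (-1.07 ± 0.20 SE, limma adjusted p = 0.0115). Both differentiation values lay below the lower quartile of all clusters on their arrays (52.0 and 48.7), where a value may be mostly background. With an offset of 1 the change of Mx1 was -1.34. Its paralog Mx2 was in the dimmest 25%, between 11.9 and 15.4 on the 4 arrays, with a log2 change of 0.09 ± 0.18. The guanylate-binding proteins, GTPases that attack the membranes around microbes, were also dim. Gbp2 had 10.8 and 18.3 in growth and 28.6 and 21.5 in differentiation (0.43 ± 0.21; adjusted p = 0.190). Gbp3 had 68.8 on growth replicate 2 and 29.6 to 34.3 on the other arrays, so its change of -0.38 ± 0.29 rests on that array. Rsad2, known as viperin, and its neighbour Cmpk2, a nucleotide kinase, make an antiviral nucleotide together. Rsad2 had 57.2 and 44.0 in growth and 58.8 and 28.6 in differentiation, while Cmpk2 had 93.7 and 102.6 in growth and 124 and 94.8 in differentiation, and the groups overlapped for both. Bst2, the tether that holds budding viruses at the cell surface, had 203 and 228 in growth and 244 and 289 in differentiation (0.29 ± 0.19; adjusted p = 0.318).

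In antigen processing, neither member passed. Psmb8, an immunoproteasome subunit, had 145 and 151 in growth and 161 and 142 in differentiation. Tap1, a subunit of the peptide transporter of the endoplasmic reticulum and the neighbour of Psmb8, had 39.0 and 25.4 in growth and 21.9 and 37.4 in differentiation. Both overlapped, with changes of 0.03 ± 0.18 SE and -0.09 ± 0.24. Of the 3 remaining measured induced genes 1, Ifi27, rose (33.3%, beside 8.64% of all clusters). It had 558 and 531 in growth and 913 and 1178 in differentiation (0.91 ± 0.20; adjusted p = 0.0198). Lgals3bp, a secreted galectin-binding glycoprotein, had 533 and 550.4 in growth and 799.6 and 769 in differentiation. Its replicates lay close and its groups apart, but the change of 0.52 ± 0.18 did not pass (adjusted p = 0.0825). Ifi35, which forms a complex with Nmi, overlapped between the groups, at 168 and 230.0 in growth and 196.5 and 257 in differentiation.

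**Figure D4:**
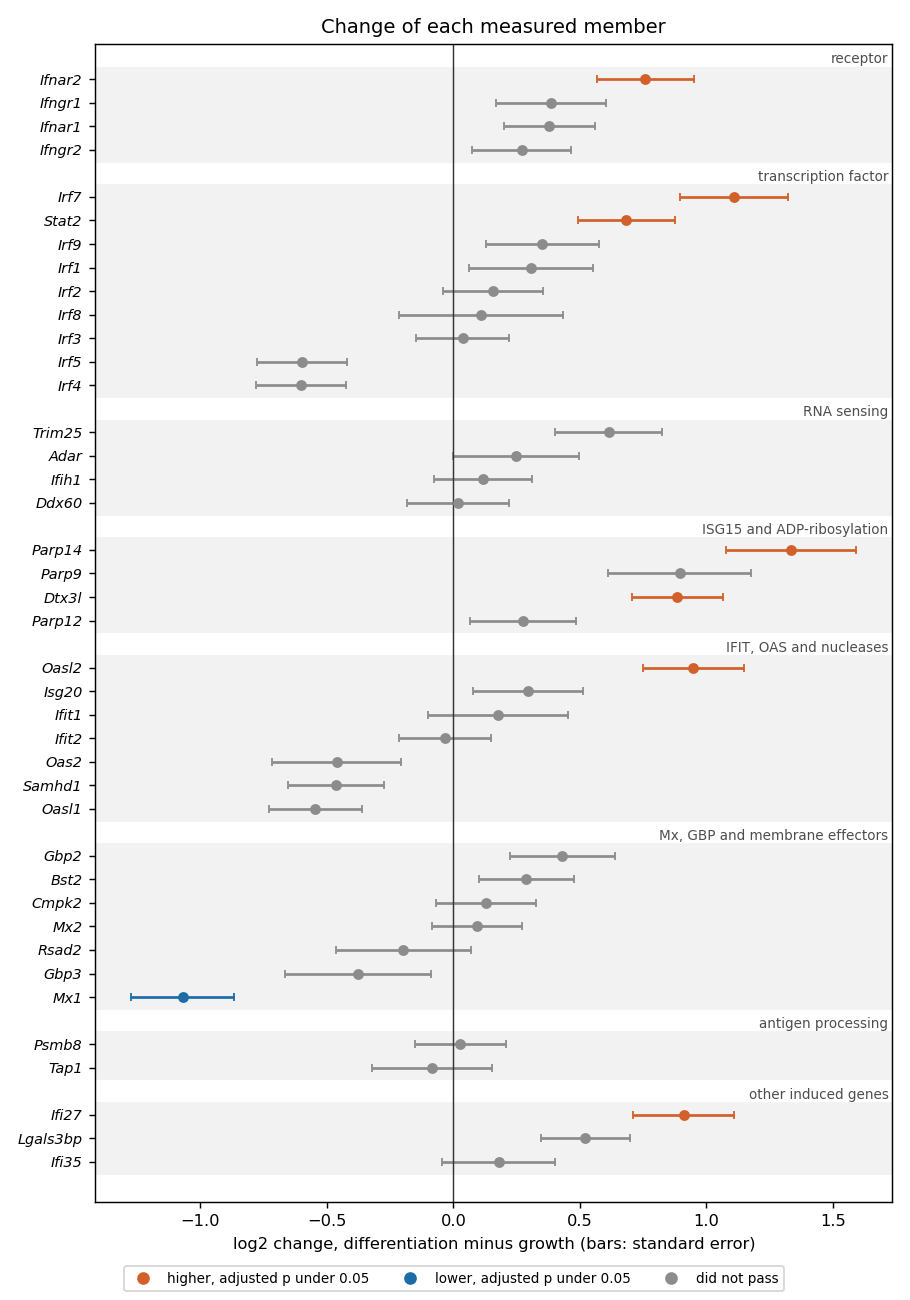
Log2 change, differentiation minus growth (horizontal axis), of each measured member, grouped by role, with the limma standard error as bars. Orange points rose, the blue point, Mx1, fell, and grey points did not pass an adjusted p of 0.05. The point of Parp14, whose growth values are near 0, shifts with the offset, and Mx1 lies at -1.07.

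No call of the 8 was kept in every alternative in which it was tested. With 1 array left out the number of members that rose was 1 without growth replicate 1 (Oasl2), 5 without growth replicate 2 (Ifnar2, Irf7, Dtx3l, Parp14 and Parp9), and 0 in limma with either differentiation array left out, where 7 higher and 4 lower members had an unadjusted p under 0.05 each time (17.5% and 10% of the members). Over all clusters 13.3% were higher and 12.2% lower at that p with replicate 1 of differentiation left out, and 13% and 10.6% with replicate 2 left out. Calls over all clusters fell as well, to 7.58% or 12.2% when growth replicate 1 or 2 was left out and to 4.63% or 4.51% for those of differentiation. Mx1 kept its call without growth replicate 2 or differentiation replicate 1 and lost it with either of the others left out. With an offset of 1, Dtx3l was the only call among the members, and 6.9% of all clusters were called. The directions of the 8 were the same in each of these settings. Stat2 also lost its call with a robust prior (adjusted p of 0.00563 to 0.206 over its 12 alternatives).

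**Figure D5:**
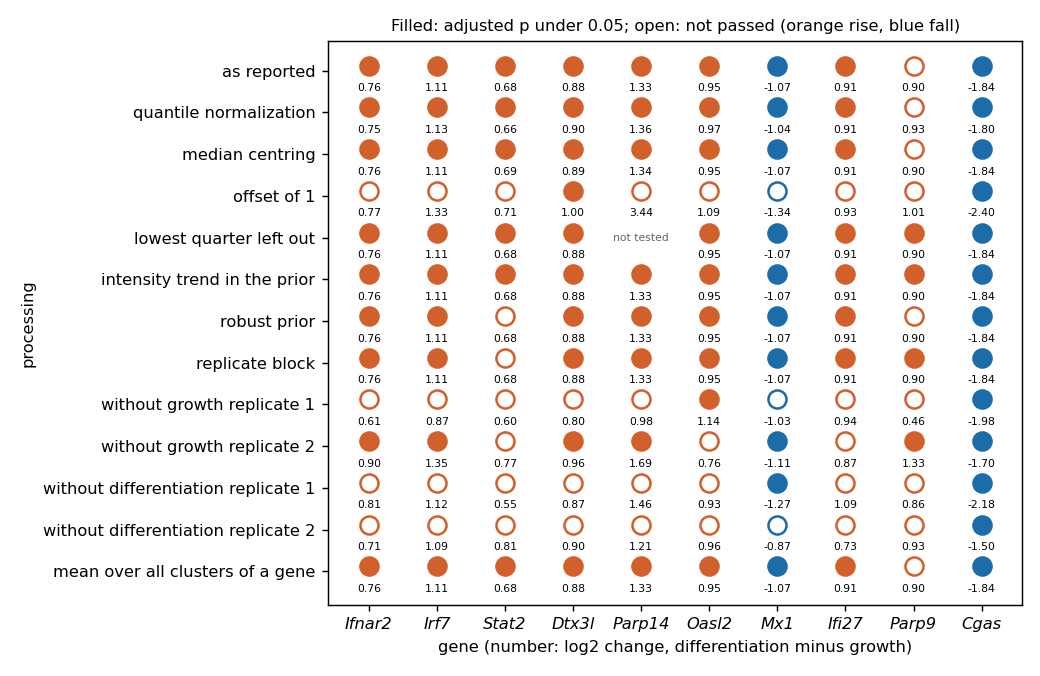
Log2 change (number) and call (filled mark, adjusted p under 0.05) of the 8 called members, Parp9 and the non-member Cgas under each processing setting (rows). Most marks of the members are open with either differentiation array left out, while Cgas stays filled in each row.

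A further list of 88 genes of the interferon system was drawn up from general knowledge of the pathway, with earlier results of these data known. Of these 56 were measured, of which 5 rose and 3 fell (14.3% called, beside 16.2% of all clusters), with a median log2 change of 0.09. Tyk2, the kinase attached to Ifnar1, rose from 249 and 246 in growth to 409 and 479.9 in differentiation (0.80 ± 0.18 SE; adjusted p = 0.0244). Jak1, the kinase attached to Ifnar2, had 2258 and 2250.1 in growth and 2700 and 2135 in differentiation and did not pass. Ikbke, a kinase that activates Irf3 and Irf7, rose by 0.70 ± 0.19, and Tdrd7, an induced tudor domain gene, by 0.71 ± 0.19. The partner of Tap1 in the peptide transporter, Tap2, rose, from 57.5 and 62.8 to 117 and 131 (0.88 ± 0.18; adjusted p = 0.0158). Tapbp, which links the transporter to class I molecules, rose by 0.74 ± 0.18, and B2m, the light chain of those molecules, had a change of 0.31 ± 0.18 that did not pass. Whether Tap2 and Tap1 differed in their change was not tested.

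With the offset of 16, Cgas, the sensor of DNA in the cytosol, had the largest change of both lists. It fell from 113 and 140.1 in growth to 34.3 and 15.3 in differentiation (-1.84 ± 0.25 SE; adjusted p = 0.00292) and passed in all 12 alternatives. With an offset of 1 the change of Cgas was -2.40 (limma, adjusted p = 0.0494) and that of the member Parp14 was larger, at 3.44. The adaptors downstream did not pass. Changes were 0.28 ± 0.19 for Sting1, which Cgas activates, and -0.28 ± 0.18 for Mavs, the adaptor of the RNA sensors. Irgm1, an immunity-related GTPase gene, fell from 834 and 1143 to 421 and 584 (-0.96 ± 0.24; adjusted p = 0.0325). Of 4 measured interferon ligand genes 1 fell (25%, beside 7.52% of all clusters). Ifnb1 was listed at 118 and 100.5 in growth and 67.6 and 55.3 in differentiation (-0.70 ± 0.19; adjusted p = 0.0451). The others, named after their values were seen, were in the dimmest 25% and did not pass, with log2 changes of 0.36 for Ifng, 0.39 for Ifna4 and -0.42 for Ifnk. The sensor gene Rigi had 154 and 139 in growth and 276 and 184 in differentiation, which did not pass (adjusted p = 0.121). None of the other 7 calls among these genes was kept in every alternative. With an offset of 1, Tap2 alone of the 7 kept its call.

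The median log2 change of the members with the response element core was 0.16 (9 genes) and that of the measured members whose window lacked it was 0.27 (25 genes). Of the 5 called members with a window 1, Stat2, had the core, beside 26.5% of the 34 measured members with a window. For the gamma-activated site, TTCNNNGAA, which reads the same on both strands, 12 of the 34 members had a match (35.3%) beside 9.55% of all genes with a window. Among them were Ifnar2, Irf1 and Irf8. The medians were 0.21 with the site and 0.22 without it. Windows of Irf7, Dtx3l and Oasl2 held neither motif, which says only that these letters are not in the stretch read.

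Facts of the arrays that bear on these values were as follows. Median intensities were 167.8 and 177.2 in growth and 174.1 and 170.0 in differentiation. All 7 myoblast markers were measured, at 647 or more on each array. Of these 5 rose, beside 8.64% of all clusters, namely Myod1, Cdh15, Myog, Chrna1 and Mymk (log2 changes of 0.89 to 1.38). The summed intensity of the 7 myoblast markers was 9980 and 10084 in growth and 17485 and 18954 in differentiation. The part of these markers in the rise of members was not tested. Of 3 measured endothelial markers none passed, and 2 lay higher on both differentiation arrays, as did 30.8% of all clusters. Of 9 leukocyte and macrophage markers 7 were measured, with none at 0 on any array. Of these 6 lay lower on both differentiation arrays, as did 5006 of all 16658 clusters. The other, Cd14, lay higher, from 57.3 and 83.0 to 96.6 and 121 (0.55 ± 0.22, adjusted p = 0.127). The summed intensity of the 7, which the brighter probes weigh most, was 628 to 729 in growth and 439 to 507 in differentiation. 2 of them fell, beside 7.52% of all clusters. These were Ptprc, from 28.2 and 21.4 to 5.67 and 4.87, and Cd68, from 160 and 123 to 78.5 and 73.2. Ptprc was in the dimmest 25%. The part of these leukocyte and macrophage markers in the values of the members was not tested.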

How the data were processed

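Total RNA of 4 C2C12 cultures was measured on Affymetrix exon arrays. For each transcript cluster the authors deposited its intensity on each array, on a linear scale, computed with PLIER on build mm9, per the submitters' processing notes. How background was corrected, whether arrays were scaled to each other and which PLIER version was used is not given in the sources used here. Depth does not apply to arrays; their number limits the precision. Clusters were named from the platform annotation, and 14938 of 16658 carried 1 symbol. Where several named a gene, the brightest was used.

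Log2(intensity + 16), with no further normalization or filter, was compared between groups with limma 3.58.1 in R 4.3.3 (lmFit, eBayes, two-sided, no covariate), adjusted by Benjamini-Hochberg over all clusters. The procedure was tested on simulated data. Every measured member could be named, and of the other pathway genes those that passed and 9 defining ones. Members and lists were chosen with earlier results of these data known. Motifs were searched with Python 3.11.15 in RefSeq windows of GRCm38.p6, and that table was also used for gene order. As alternatives, an offset of 1, median centring, quantile normalization, removal of the dimmest 25% of clusters, an intensity trend or robust prior in eBayes, the replicate block, leaving out each array, and averaging the clusters of a gene were tried.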

Additional observations from a re-analysis of the deposited data

How the results depend on the processing

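Quantile normalization, median centring and averaging the clusters of a gene left the counts at 7 members higher and 1 lower, and at 5 other pathway genes higher and 3 lower. A robust prior gave 6 and 1 members. With an offset of 1, members were 1 higher and 0 lower (limma; 9 and 4 at an unadjusted p under 0.05, 22.5% and 10% of them, beside 15.5% and 13.5% of all clusters), and other pathway genes 1 and 1, with 6.9% of all clusters called. With the dimmest 25% of clusters left out, 9 members were higher and 3 lower of 31 tested, and 9 other pathway genes were higher; Irf5 and Oasl1 were the added falls, and Trim25, Parp9 and Lgals3bp the added rises, with adjusted p of 0.0286 to 0.0469. There 28.4% of all clusters were called. The adjustment and the variance prior both change with the clusters tested, and their parts were not separated. An intensity trend in the prior gave 11 members higher and 2 lower and 12 other pathway genes higher, with 26.2% of clusters called; Ifnar1 and Samhd1 passed there.

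Leaving out 1 array at a time gave 0 to 5 members higher and 0 to 1 lower, and 0 to 3 other pathway genes higher and 1 to 2 lower, with 4.51% to 12.2% of clusters called. Fewer arrays were used there, and a group left with 1 array was taken to have the spread of the other group. Changes that switched sign with an array left out all belonged to genes that did not pass. Their ranges were -0.015 to 0.63 for Irf1, -0.019 to 0.33 for Irf2, -0.067 to 0.14 for Irf3, -0.35 to 0.56 for Irf8, -0.0099 to 0.24 for Ifih1, -0.17 to 0.21 for Ddx60, -0.10 to 0.60 for Adar and -0.15 to 0.50 for Ifit1. They were -0.14 to 0.072 for Ifit2, -0.82 to 0.071 for Gbp3, -0.57 to 0.18 for Rsad2, -0.041 to 0.30 for Cmpk2, -0.33 to 0.16 for Tap1, -0.053 to 0.11 for Psmb8, -0.030 to 0.39 for Ifi35 and -0.077 to 0.26 for Jak1.

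The labels do not say whether same-numbered arrays of the groups were handled together. With 2 arrays per group, the correlation of their deviations across clusters, at -0.04, cannot settle this. With the replicate block 7 members were higher and 1 lower, as before; Stat2 lost its call and Parp9 gained one (adjusted p = 0.0460). The signal of dim clusters cannot be told from background without detection calls.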

Other observations

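For a few members the arrays of 1 condition lay well apart. Growth replicate 2 was above growth replicate 1 for 24 of the 40 members (60%), beside 59.8% of all clusters. Differentiation replicate 2 was above differentiation replicate 1 for 18 (45%), beside 47.4%. Between the growth arrays the log2 difference, replicate 2 minus replicate 1, was 0.90 for Gbp3, 0.88 for Parp9, 0.71 for Parp14, 0.70 for Adar and 0.64 for Irf1, and -0.66 for Oas2 and -0.65 for Ifit1. Between the differentiation arrays Irf8 (-0.91) and Rsad2 (-0.75) differed most. Irf8 was lower on replicate 2 of both conditions.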
